A study of Homo sapiens with 6 samples.

Results

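The genes for SR proteins and for heterogeneous nuclear ribonucleoproteins (hnRNPs) were followed in human embryonic kidney HEK293T cells with and without the RNA demethylases ALKBH5 and FTO. The set held the 39 protein-coding genes in GENCODE release 29 whose symbols start with SRSF (12 genes) or HNRNP (27 genes), of 58721 genes in the count table. Of these, 32 passed the filter on low counts (11 SRSF and 21 HNRNP genes), among 14180 genes tested. HEK293T is an established, readily transfected line derived from embryonic kidney cells. The study compared 3 libraries of wild type cells with 3 libraries of cells carrying a CRISPR/Cas9 knockout of both ALKBH5 and FTO, described as independent biological replicates. The sources used here do not give the number of knockout clones. RNA was taken from cleared detergent lysates made with cycloheximide in both groups and is called cytoplasmic in the labels. Libraries were made after depletion of ribosomal RNA, without selection for poly(A).

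ALKBH5 and FTO remove methyl groups from adenosines in RNA, FTO acting on N6-methyladenosine (m6A) and on the cap-adjacent m6Am. SR proteins carry RNA recognition motifs and a domain rich in arginine and serine, bind exonic enhancers and promote the use of nearby splice sites. The hnRNPs coat nascent transcripts, and many of them repress splice sites or act in export, stability and translation. Both families regulate one another and themselves, often through alternative exons that send their own mRNA into nonsense-mediated decay. HNRNPA2B1 and HNRNPC have been described as m6A-dependent RNA-binding proteins, and SRSF3 and SRSF10 as partners of the nuclear m6A reader YTHDC1.

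Libraries held 5634648 to 7551825 counts over all genes, so a count of 0 in 1 library allows 0.397 to 0.532 CPM (counts per 1000000 counts) by counting error alone. ALKBH5 RNA was 243, 256 and 235 CPM in the wild type libraries and 186, 186 and 187 CPM in the double knockout libraries, a log2 fold change of -0.40 (SE 0.04, adjusted p = 2.74e-22). FTO RNA was 106, 96.5 and 112 CPM against 53.8, 53.6 and 61 CPM and fell by 0.90 (SE 0.06, adjusted p = 4e-44). Both transcripts were still present in every double knockout library, and a gene count does not show whether a frame was disrupted. All 5 HEK293 line markers tested (VIM, KRT8, KRT18, NEFM and PAX2) were present in both groups, with summed levels of 985 to 1051 CPM in the wild type against 1414 to 1420 CPM in the double knockout. All 5 passed as higher. Of 7 markers of blood, endothelial and fibroblast cells, 6 were too low to test, and the 7 summed to 11.3 to 13.9 CPM against 9.08 to 13.3 CPM, nearly all of it COL1A1. The nuclear RNAs MALAT1 and NEAT1 were at 1452 and 249 CPM in the wild type and 1406 and 253 CPM in the double knockout. RNA called cytoplasmic thus held nuclear RNA in both groups. Neither passed, with log2 fold changes of -0.05 (adjusted p = 0.12) and 0.02 (adjusted p = 0.614).

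SR protein and hnRNP transcripts were mostly lower in the double knockout. Of the 11 SRSF genes tested, 8 fell, none rose and 3 did not pass. Of the 21 HNRNP genes tested, 15 fell, 1 rose and 5 did not pass. Over all tested genes, 57.1% passed in either direction, 28.5% as lower and 28.6% as higher, at an adjusted p under 0.05 by edgeR's quasi-likelihood test. Scaled by the added GFP and FLuc RNA instead, 4236 genes were lower and 2133 higher, against 4038 and 4055. With that scaling 8 SRSF and 15 HNRNP genes were lower, and the median of all genes shifted by -0.11 on the log2 scale. GFP had only 285 to 384 reads per library and FLuc 31 to 64, so this scaling carries counting error of its own. Rluc RNA, at 271 to 378 reads, was not used. No SRSF gene was higher at an unadjusted p under 0.05 either, and DESeq2 and limma voom also gave 0. None of the 32 changed by 2-fold, against 6% of all tested genes. The median log2 fold change was -0.13 over the SRSF genes and -0.21 over the HNRNP genes, beside 0.01 over all tested genes. Summed levels were 3439, 3458 and 3489 CPM for SRSF genes in the wild type against 3131, 3088 and 3094 CPM in the double knockout, a difference of 10.3%. For HNRNP genes the sums were 9412, 9596 and 9631 CPM against 7896, 7817 and 7745 CPM, a difference of 18.1%. In bulk RNA, fewer cells that carry a transcript and less of it per cell cannot be told apart.

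These are abundant transcripts, and abundant transcripts passed as lower more often than others. Among 2617 protein-coding genes with a mean of at least 100 CPM, 1228 (46.9%) were lower and 662 were higher. Their median log2 fold change was -0.07. The limit of 100 CPM was chosen after the values were seen. Of the 26 SRSF and HNRNP genes above that level, 23 were lower and 0 higher, with a median of -0.18. The 23 falls ranged from 6.33% to 44.2%. In 22 of the 23 the 3 double knockout libraries all lay below the 3 wild type libraries, HNRNPA3 being the exception. That follows largely from the call, which was made on the same libraries. Counted without regard to the call, groups did not overlap in 23 of the 32 tested genes of the set. The share over all tested genes was 60.6%.

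**Figure D1:**
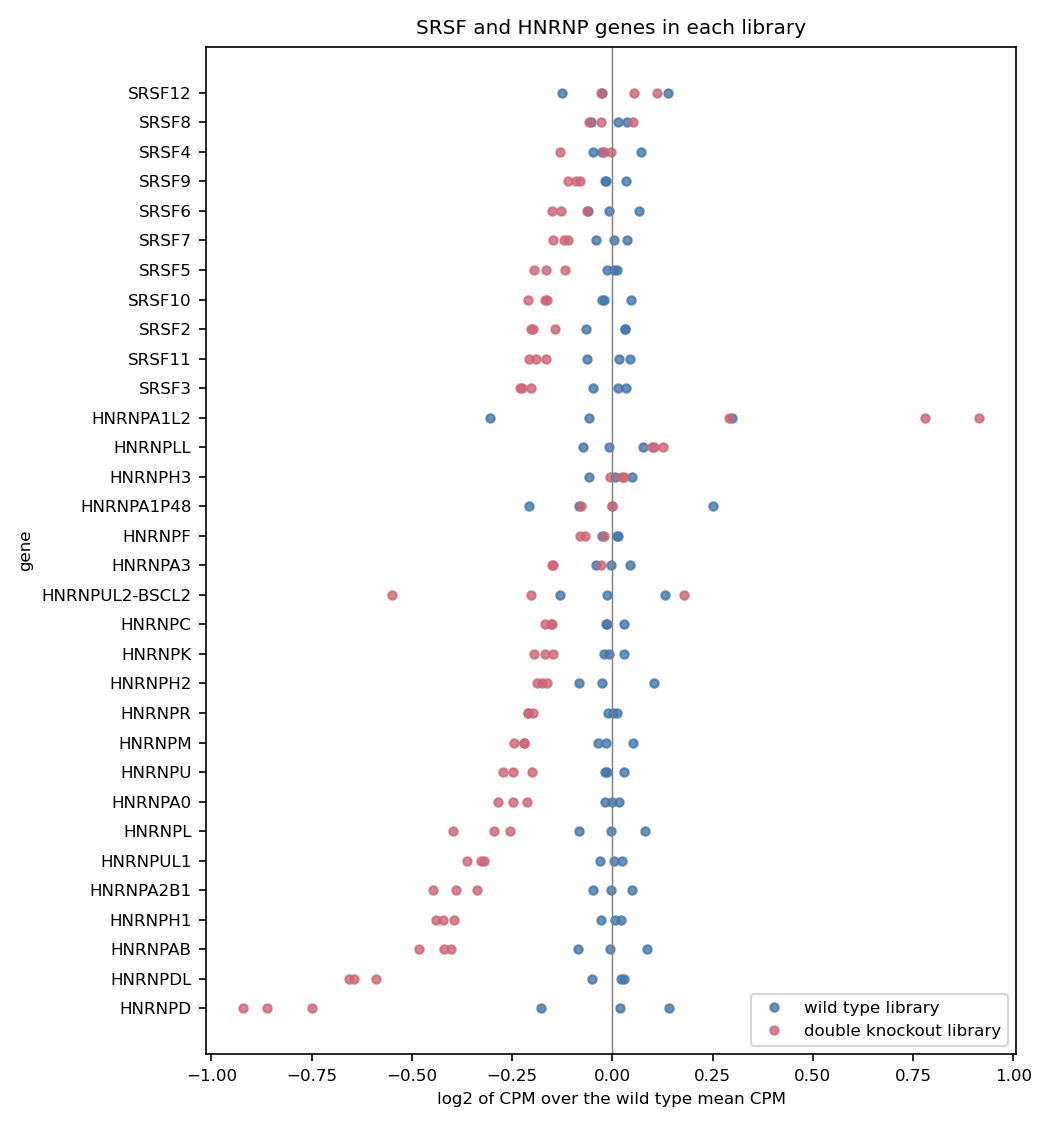
Level of each tested SRSF and HNRNP gene in each of the 6 libraries, as log2 of CPM over the mean wild type CPM (blue: wild type, red: double knockout; each point is 1 library). Most red points lie to the left of the blue ones, from SRSF3 at 581 against 677 CPM on average down to HNRNPD at 147 against 263 CPM, and HNRNPA1L2 lies to the right.

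The SRSF falls were small and alike. They ranged from 6.33% to 14.1%, and the standard errors on the log2 scale were 0.03 to 0.04. SRSF3, the smallest SR protein and an adaptor for mRNA export, had 655, 683 and 693 CPM in the wild type against 576, 588 and 579 CPM in the double knockout. The groups were apart by more than the spread within either, and SRSF3 fell by 0.22 (SE 0.03, adjusted p = 2.73e-12), the largest fall among the SRSF genes. SRSF11, an SR-like protein, had 553, 513 and 543 CPM against 478, 464 and 470 CPM and fell by 0.19 (SE 0.03, adjusted p = 9.34e-09). SRSF2, which is largely retained in the nucleus and binds exonic enhancers, had 385, 411 and 411 CPM against 364, 349 and 351 CPM and fell by 0.18 (SE 0.03, adjusted p = 2.12e-07). One end of SRSF2 lies opposite MFSD11, which runs on the other strand and also fell, by 0.37 (SE 0.08, adjusted p = 2.76e-05).

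SRSF10, which can act as a splicing repressor once dephosphorylated, had 375, 374 and 394 CPM against 339, 340 and 329 CPM and fell by 0.18 (SE 0.03, adjusted p = 3.61e-07). SRSF5 had 249, 250 and 246 CPM against 229, 217 and 221 CPM and fell by 0.16 (SE 0.04, adjusted p = 4.81e-05). In both genes every double knockout library was below every wild type library. SRSF7, a zinc-knuckle SR protein that also serves in export, fell by 0.13, SRSF6 by 0.12 and SRSF9 by 0.09. The SRSF9 call was the weakest of the 8 (adjusted p = 0.0221). It was lost with DESeq2 (adjusted p = 0.0976), with a mean of at least 5 CPM (0.0581) and without wild type replicate 1 (0.0776), over a range of log2 fold changes from -0.20 to -0.08 across 13 refits. SRSF9 faces GATC on the other strand, and GATC rose by 0.15 (SE 0.05, adjusted p = 0.00665).

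SRSF4, SRSF8 and SRSF12 did not pass. SRSF4 had 161, 175 and 164 CPM in the wild type against 152, 164 and 166 CPM in the double knockout, a log2 difference of -0.05 (SE 0.04, adjusted p = 0.288). SRSF8, an intron-poor relative of SRSF2, was at 68.9 ± 2.2 CPM against 68.4 ± 2.7 CPM (SD, n = 3 each), and SRSF12, a relative of SRSF10, at 27.1 ± 2.53 CPM against 28 ± 1.34 CPM (SD, n = 3 each). The libraries of the groups overlapped in these 3 genes.

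The largest falls were in HNRNP genes, and the 2 largest were in neighbours on chromosome 4. HNRNPD (AUF1) binds AU-rich elements and promotes mRNA decay, and HNRNPDL is its paralogue. HNRNPD (chr4:82352498-82374503, minus strand, hg38) had 290, 232 and 266 CPM in wild type libraries and 156, 139 and 145 CPM in double knockout libraries. No double knockout library reached the lowest wild type library, although the wild type libraries spread widely, and HNRNPD fell by 0.84 (SE 0.10, adjusted p = 0.00117), or 44.2%. HNRNPDL (chr4:82422564-82430408, minus strand) had 366, 385 and 387 CPM against 243, 252 and 241 CPM and fell by 0.63 (SE 0.03, adjusted p = 3.32e-57), or 35.3%. ENOPH1, a methionine salvage enzyme that starts head to head with HNRNPDL on the plus strand, fell by 0.47 (SE 0.06, adjusted p = 3.1e-14).

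HNRNPAB, HNRNPH1 and HNRNPA2B1 followed. In wild type cells they had the 3 highest levels per kb of merged exons among the tested genes with such a level. HNRNPAB, an hnRNP of the A/B type, had 553, 623 and 584 CPM against 444, 438 and 420 CPM and fell by 0.43 (SE 0.03, adjusted p = 9.7e-35). HNRNPH1, which binds runs of G near splice sites, had 992, 1016 and 1028 CPM against 755, 770 and 746 CPM and fell by 0.42 (SE 0.03, adjusted p = 1.91e-41). HNRNPA2B1 had 1540, 1589 and 1645 CPM against 1260, 1215 and 1166 CPM and fell by 0.39 (SE 0.03, adjusted p = 1.8e-39). Each fall was several times the spread within a group. CBX3, a heterochromatin protein gene that starts from the same region as HNRNPA2B1 on the opposite strand, fell by 0.34 (SE 0.03, adjusted p = 6.21e-21).

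The other HNRNP genes that passed as lower fell by less. HNRNPC, which binds runs of U and keeps intronic Alu elements out of mRNA, had 757, 781 and 758 CPM against 682, 690 and 688 CPM. The groups did not overlap, and HNRNPC fell by 0.16 (SE 0.03, adjusted p = 2.92e-07). HNRNPUL1 fell by 0.34 and HNRNPL, which binds CA repeats, by 0.32. HNRNPA0 fell by 0.25, the nuclear scaffold protein gene HNRNPU by 0.24, HNRNPM by 0.23, HNRNPR by 0.21, HNRNPH2 by 0.18, the poly(C)-binding HNRNPK by 0.17 and HNRNPA3 by 0.11. HNRNPA3 had 335, 344 and 355 CPM against 338, 311 and 311 CPM, so double knockout replicate 1 lay among the wild type libraries (adjusted p = 0.00374).

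HNRNPA1L2, a near-copy of HNRNPA1 on chromosome 13, was the only gene of the set that passed as higher. It had 2.75, 3.26 and 4.18 CPM in the wild type against 5.83, 4.16 and 6.4 CPM in double knockout libraries, from 67 and 102 reads in all. The groups overlapped, and the log2 fold change was 0.71 (SE 0.23, adjusted p = 0.00599). The call was lost with DESeq2 (adjusted p = 0.0646), without wild type replicate 1 (0.0584) and without double knockout replicate 3 (0.0622), and the log2 fold change ranged from 0.56 to 0.87 over its 12 refits. HNRNPLL, HNRNPH3, HNRNPF, HNRNPA1P48 and HNRNPUL2-BSCL2 did not pass. HNRNPLL, known from alternative splicing in lymphocytes, was at 76.2 ± 3.98 CPM against 82.2 ± 0.884 CPM (SD, n = 3 each) with no overlap (log2 difference 0.12, adjusted p = 0.066). HNRNPF, a G-run binder like HNRNPH1, was at 327 ± 5.12 CPM against 314 ± 7.11 CPM (SD, n = 3 each). HNRNPH3, of the same subfamily, was at 262 ± 9.79 CPM against 265 ± 3.35 CPM (SD, n = 3 each).

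HNRNPA1 itself, among the most abundant hnRNPs, had 0 counts in all 6 libraries. SRSF1, the founding SR protein, had 10 reads in wild type and 6 in double knockout libraries, and HNRNPUL2 had 0 and 3. All 3 genes share their strand and position with a longer annotated gene. HNRNPA1 (chr12:54280193-54287088, plus strand, hg38) lies wholly inside the span of AC078778.2, and only 2.51% of the SRSF1 span is free of AC015813.2. AC015813.2, counted outside the stretch it shares with SRSF1, was at 136 ± 8.22 CPM against 104 ± 4.23 CPM (SD, n = 3 each), which is no measure of SRSF1. The readthrough gene HNRNPUL2-BSCL2 covers HNRNPUL2 and BSCL2. Of 192 protein-coding genes inside a same-strand gene with no shared exon, 100% had 0 counts in all libraries, as had 100% of 354 with shared exons. Among 860 genes inside an opposite-strand gene only, 32% had 0 counts, and among 7140 with no overlapping gene 20.5% had 0 counts. The counts therefore carry no information on HNRNPA1, SRSF1 or HNRNPUL2, and the 85 and 71 reads of HNRNPUL2-BSCL2 came from the 7.5% of its span that is free. Outside these, same-strand overlap touched HNRNPH2 (31.4% of the span free) and HNRNPL (71.4% free) most. HNRNPCL1, HNRNPCL2, HNRNPCL3 and HNRNPCL4, relatives of HNRNPC, had 0 to 4 reads in a group.

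**Figure D2:**
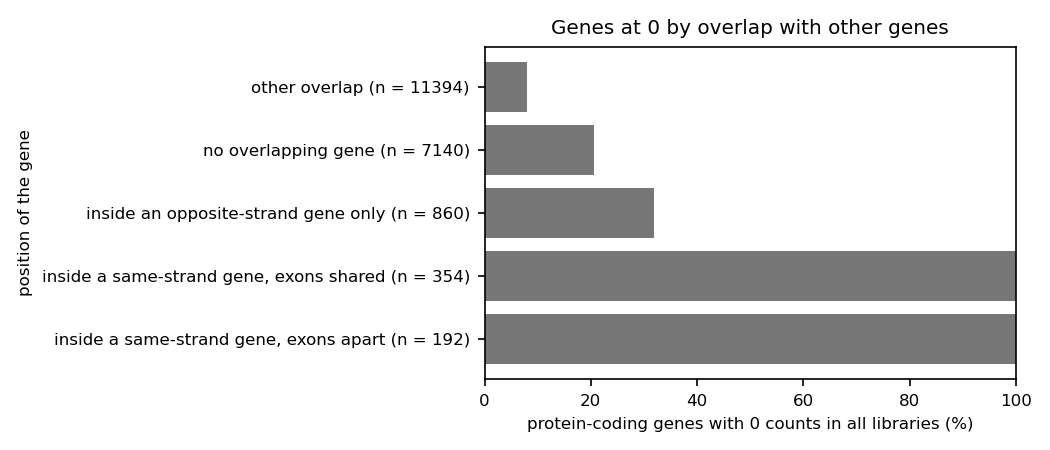
Share of protein-coding genes with 0 counts in all 6 libraries (x axis, %), by how each gene's annotated span overlaps other genes (y axis). Both classes of genes lying inside a same-strand gene stand at 100%, the position in which HNRNPA1 lies, against 32% of genes inside an opposite-strand gene only.

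HNRNPA1 and its copies were compared by sequence because short reads from one can align to another. Over the 960 coding bases of HNRNPA1, HNRNPA1L2 had 15 mismatches (98.4% identity) and HNRNPA1P48 had 6 (99.4% identity). Of all 50-base words in the HNRNPA1L2 transcript, 58.5% also occurred in another gene's transcript, and for HNRNPA1P48 the share was 49.2%. The sources used here do not say how reads with several alignments were treated, so the rise of HNRNPA1L2 cannot be told apart from a change in HNRNPA1 reads placed there. Word sharing was also high for HNRNPA3 (52.4%, mostly with processed pseudogenes such as HNRNPA3P6) and for HNRNPC (27.6%, mostly HNRNPCP2). It was 32.3% for HNRNPL, mostly with the overlapping gene AC008982.1. For SRSF9 (38.9%, GATC) and SRSF2 (29.5%, MFSD11) the words were shared with a gene that runs the other way. Whether counting used strand is not stated. Overlap with an opposite-strand gene did not empty the counts as same-strand overlap did (32% against 100% of enclosed genes at 0). The levels of HNRNPA3, HNRNPC and HNRNPL are uncertain to the extent of their shared words, and those of SRSF9 and SRSF2 only as far as strand was not kept. It was 0.704% for HNRNPD, 0% for HNRNPDL and 2.64% for HNRNPA2B1.

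Levels differed far more among the genes than between the cell lines. HNRNPUL2-BSCL2, with no exon free of a same-strand gene, has no level per length and is left out here. Per length, as CPM per kb of merged exons, the wild type levels of the other 31 tested genes ran from 2.47 for HNRNPA1L2 to 314 ± 18.8 (SD, n = 3) for HNRNPAB. HNRNPH1 (272 ± 4.87, SD, n = 3) and HNRNPA2B1 (268 ± 8.86, SD, n = 3) came next and overlapped each other, followed by HNRNPK at 239 and HNRNPM at 226. SRSF9 was the highest SRSF gene at 194, ahead of SRSF3 at 154 and SRSF7 at 151, which overlapped each other. Of 30 neighbouring pairs in this order, 10 had overlapping libraries. Merged exons pool the exons of a gene's transcripts, so the order depends on the length used. HNRNPC has 6272 bases of merged exons but 1714 in 1 representative transcript, against 1870 and 1796 for HNRNPAB. In the double knockout HNRNPAB stayed highest at 232 CPM per kb, and HNRNPDL (70.9 to 45.8) and HNRNPD (85.7 to 47.8) moved down past genes that were below them. Across these 31 genes the log2 fold change was lower where the wild type level per kb was higher (Pearson r = -0.64, Spearman rho = -0.50). That is a description over genes of the same libraries, and the level enters both quantities. Reads in introns are inside the counted spans, so a level per kb of exon can include them, and the levels of HNRNPL and HNRNPH2 lack the exon stretches shared with a same-strand gene (62.1% and 82.6% of exon bases free).

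**Figure D3:**
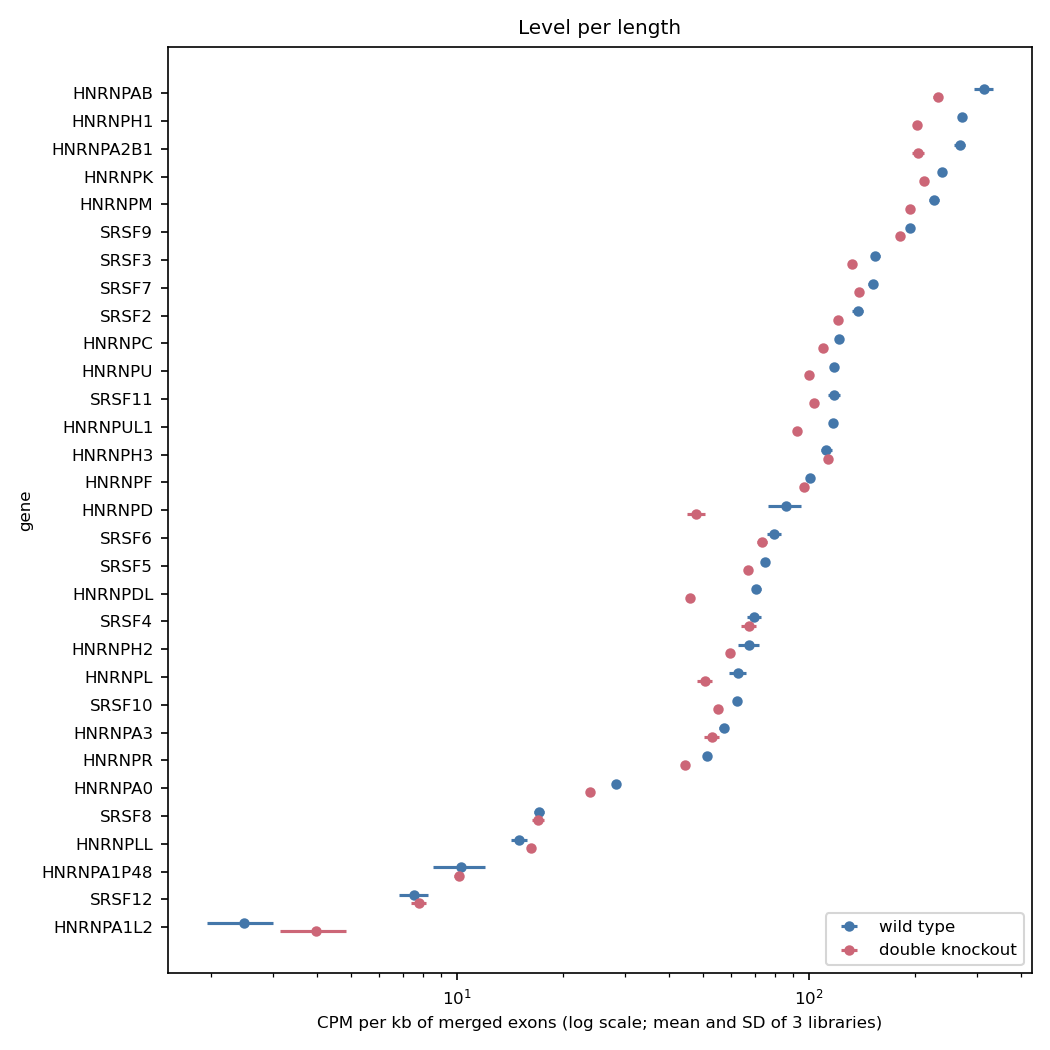
Level per length of 31 tested SRSF and HNRNP genes, as CPM per kb of merged exons on a log scale (blue: wild type, red: double knockout; points are means and bars SDs of 3 libraries). HNRNPAB, at 314 and 232, is highest in both groups, and the gap between the colours is widest for HNRNPD, HNRNPDL and, in the other direction, HNRNPA1L2.

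The size of a fall went with the fold change of neighbouring genes on the chromosome. For each gene the median log2 fold change of the 20 nearest tested genes on either side, SRSF and HNRNP genes left out, was set beside its own. In 7 of the 23 falling genes the neighbour median was under -0.2 (a limit chosen after the values were seen): HNRNPD, HNRNPDL, HNRNPAB, HNRNPH1, HNRNPA2B1, HNRNPUL1 and HNRNPL, which are also the 7 largest falls. Around HNRNPD the neighbour median was -0.50 and 34 of 40 neighbours were below 0. Around HNRNPA2B1 it was -0.34, with 31 of 40 below 0. Across the 32 tested genes the log2 fold change and the neighbour median had Pearson r = 0.71 and Spearman rho = 0.50, as a description, since adjacent genes share neighbours. The part of chromosome position in these falls was not tested.

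Falling genes are mostly below their neighbours by choice: of all 4038 genes called lower, 89.7% lay below their own neighbour median, with a median difference of -0.25. Of the 1228 that are protein-coding with a mean of at least 100 CPM, 93.6% did, with a median difference of -0.22. The 23 falling SRSF and HNRNP genes were all below theirs, which adds nothing to the call itself. Their difference ranged from -0.34 to -0.0017, with a median of -0.16. HNRNPD remained 0.34 below its neighbours and HNRNPDL 0.14 below, while HNRNPA2B1 and HNRNPUL1 were each only 0.05 below theirs. The 8 SRSF genes that fell all lay among neighbours with medians of -0.12 or higher. SRSF10 was the clearest, with a neighbour median of 0.17 and a difference of -0.34. SRSF2, at 0.13 for its neighbours, differed from them by -0.31. HNRNPM, with neighbours at 0.10, differed from them by -0.32. SRSF7 was at its neighbours' median of -0.12.

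**Figure D4:**
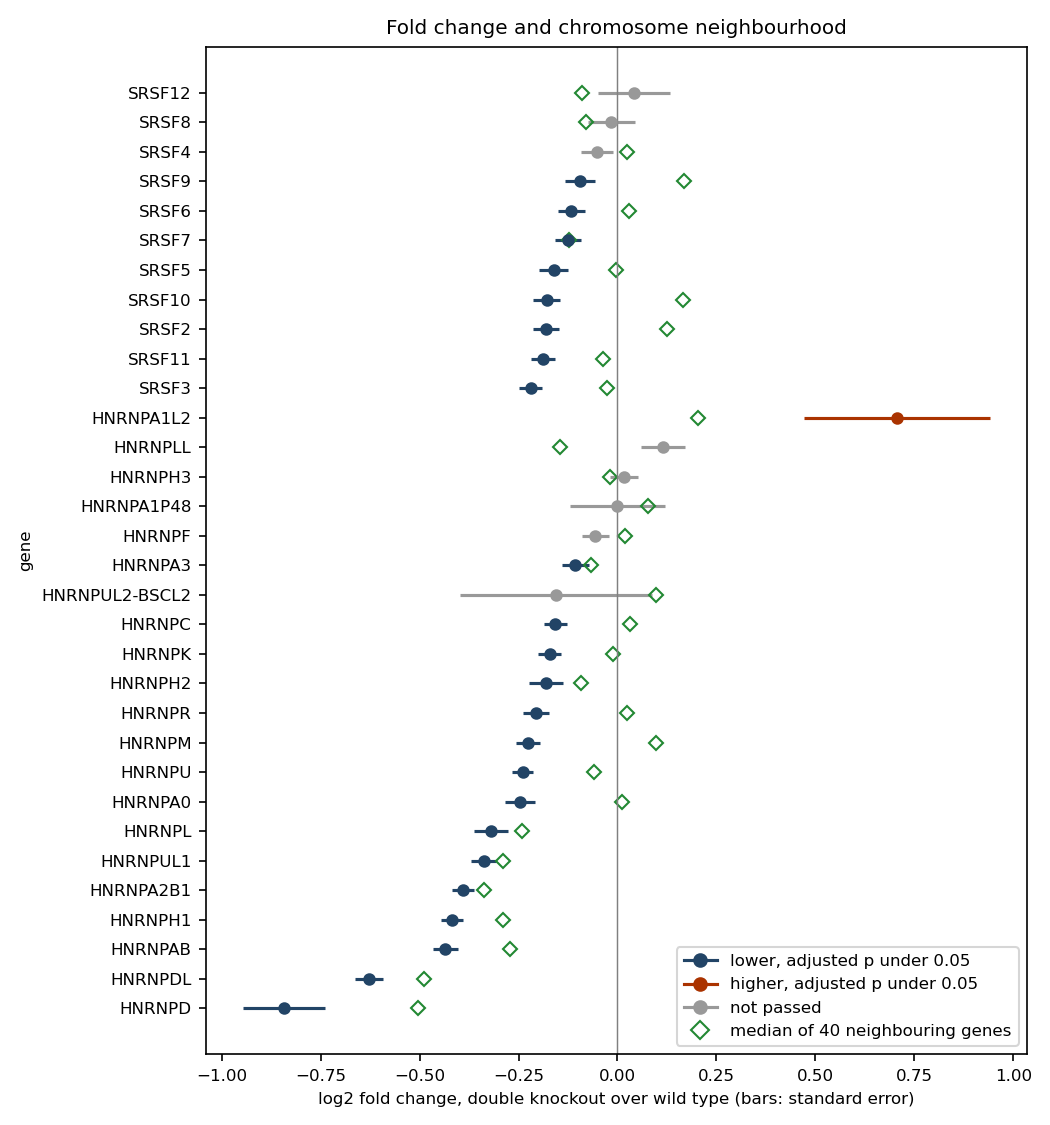
Log2 fold change, double knockout over wild type, of each tested SRSF and HNRNP gene (points with standard error bars; blue: lower, red: higher, grey: not passed) beside the median of its up to 40 neighbouring genes (green diamonds). Blue points lie left of their diamonds, by 0.34 for HNRNPD and SRSF10 and by 0.05 for HNRNPA2B1, and the diamonds of HNRNPD and HNRNPDL lie near -0.50.

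The start regions of the 2 chromosome 4 neighbours and of HNRNPA2B1 are printed because these genes fell together with the gene beside them. Each is the 250 bases before a RefSeq transcript start (GRCh38.p14), on the gene's strand. Other annotated transcripts start further upstream: the HNRNPD and HNRNPA2B1 windows lie wholly inside the GENCODE gene spans. The printed HNRNPDL window lies mostly inside its span, which ends at 82430408. Part of each window can therefore be transcribed. Capitals mark matches, on either strand, to the E-box CACGTG, the CCAAT box, the GC box GGGCGG and the TATAAA box.
HNRNPD, chr4:82373992-82374241: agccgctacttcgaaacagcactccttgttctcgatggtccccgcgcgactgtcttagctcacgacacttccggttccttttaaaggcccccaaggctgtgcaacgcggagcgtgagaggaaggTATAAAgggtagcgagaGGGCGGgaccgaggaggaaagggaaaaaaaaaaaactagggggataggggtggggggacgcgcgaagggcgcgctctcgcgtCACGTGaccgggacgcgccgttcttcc
HNRNPDL, chr4:82430226-82430475: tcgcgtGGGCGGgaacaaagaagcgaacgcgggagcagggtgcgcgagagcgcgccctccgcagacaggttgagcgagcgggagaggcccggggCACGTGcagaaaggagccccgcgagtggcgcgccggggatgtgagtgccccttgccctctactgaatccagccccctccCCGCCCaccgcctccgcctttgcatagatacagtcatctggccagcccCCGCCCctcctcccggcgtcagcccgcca
HNRNPA2B1, chr7:26200747-26200996: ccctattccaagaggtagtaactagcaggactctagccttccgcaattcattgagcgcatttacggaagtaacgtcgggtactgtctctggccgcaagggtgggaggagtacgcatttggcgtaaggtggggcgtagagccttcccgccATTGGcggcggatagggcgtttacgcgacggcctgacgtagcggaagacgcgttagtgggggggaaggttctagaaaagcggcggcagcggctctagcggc
The HNRNPD window held 1 E-box, 1 GC box and 1 TATAAA match, the HNRNPDL window 1 E-box and 3 GC boxes, and the HNRNPA2B1 window 1 CCAAT box. HNRNPDL has a further RefSeq start, and its window (chr4:82430463-82430712, not printed) held 1 E-box, 4 GC boxes and 1 CCAAT box. Of 44 such windows of 30 tested genes of the set, 15.9% held CACGTG, against 6.34% of 35116 windows of all genes. The wider group includes genes not tested in these cells, so it is not a matched background. The shares were 47.7% against 32% for CCAAT, 61.4% against 42.6% for GGGCGG and 13.6% against 10.7% for TATAAA. Windows of 1 gene can overlap, and a match is no evidence of binding.

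The consensus core of m6A, GGACT in DNA letters, was read on the transcript strand of 1 representative transcript per gene. It was found within 200 bases either side of the end of the coding sequence in 6 of 30 tested genes of the set (20%) and in 38.2% of 10795 tested protein-coding genes. The median density was 0.718 per kb against 0.924 per kb. SRSF9 had the highest density, at 3.33 per kb, and HNRNPAB, HNRNPM and HNRNPR held no GGACT. All 3 of the latter fell, as did 23 of the 32 tested genes of the set, so this says little about the motif. Of the genes with a match in the window, HNRNPA1L2 passed as higher and SRSF8 did not pass. The 4 falling genes with a match in the window are shown with GGACT in capitals, each with the match nearest the coding end.
SRSF7: ctgaaagaatGGACTgaagctctca
SRSF10: tcaaggtcttGGACTagtcctaagt
HNRNPL: cagctcctctGGACTgctggagtgg
HNRNPA3: ttcttgttcaGGACTgtcatagcca
The SRSF7 match lies 4 bases before the coding end, that of SRSF10 26 bases and that of HNRNPL 135 bases before it, and that of HNRNPA3 189 bases after it. Over 31 tested genes the density and the log2 fold change had Pearson r = 0.11 and Spearman rho = 0.07, a weak relation given as a description. Methylation itself was not measured.

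Related genes of the splicing machinery did not all move alike. The shares to set beside each list are 28.5% lower and 28.6% higher over all tested genes. Among protein-coding genes with a mean of at least 100 CPM, 46.9% were lower. Of 30 other splicing proteins with arginine and serine rich domains, 25 fell and 1 rose. BCLAF1 (322 ± 0.54 to 190 ± 8.94 CPM, SD, n = 3 each) and the cyclophilin NKTR (158 ± 4.81 to 90.6 ± 4.35 CPM, SD, n = 3 each) fell by 0.76 and 0.80 on the log2 scale. U2SURP, a U2 snRNP-associated protein, fell by 0.44. All 3 had neighbour medians from -0.63 to -0.48 and differed from them by -0.29 (BCLAF1), -0.28 (NKTR) and 0.19 (U2SURP). Over all falling genes of the list the neighbour medians ran from -0.63 for U2SURP to 0.17 for SRRM1. RNPS1, a component of the exon junction complex, was the gene that rose (log2 fold change 0.16). That call was lost with spike-in scaling (0.05, adjusted p = 0.655) and kept in the other 12 refits. The summed level of the list was 18.2% lower.

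Of 9 tested SR protein kinases and import receptors, 5 fell and 1 rose. The nuclear import receptor TNPO1 fell by 0.27, and SRPK1, which phosphorylates SR proteins in the cytoplasm, by 0.22. CLK4, a nuclear kinase of the same substrates, fell by 0.65, and CLK3 was the gene that rose (0.43). Of 21 tested RNA-binding proteins of the hnRNP kind with other symbols, 8 fell and 6 rose, with a median of -0.02. With spike-in scaling 7 were lower and 1 higher. TAF15 fell by 0.76, PTBP2, a neuronal relative of the polypyrimidine tract binding protein, by 0.60, and MSI2 by 0.43.

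The core of the spliceosome moved in both directions. Of 41 snRNP and core proteins, 13 fell, 13 rose and 15 did not pass, with a median of 0.05. With spike-in scaling 12 were lower and 4 higher, so the number of rises depends on the scaling. The Sm protein gene SNRPD2 fell by 0.37 and the U2 snRNP subunit gene SF3B5 by 0.57, whereas the Sm protein gene SNRPD1 rose by 0.38. The neighbour medians were -0.28 for SNRPD2, -0.61 for SF3B5 and 0.27 for SNRPD1. Of 9 tested nonsense-mediated decay factors, 6 fell and 1 rose. UPF2 fell by 0.83, SMG1 by 0.30 and UPF3B by 0.36, beside neighbour medians of -0.43, 0.02 and -0.05. UPF1 passed as higher (log2 fold change 0.11, adjusted p = 0.019), but its libraries overlapped between groups. It passed in only 7 of 13 refits. The call was lost with spike-in scaling (log2 fold change -0.0022, adjusted p = 0.987), with DESeq2 (adjusted p = 0.121), with no low-count filter (0.0954) and without wild type replicate 1 (0.129), wild type replicate 2 (0.0975) or double knockout replicate 2 (0.168). Of the 32 SRSF and HNRNP genes tested, 24 have an annotated transcript subject to this decay, and the count table does not separate transcripts.

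**Figure D5:**
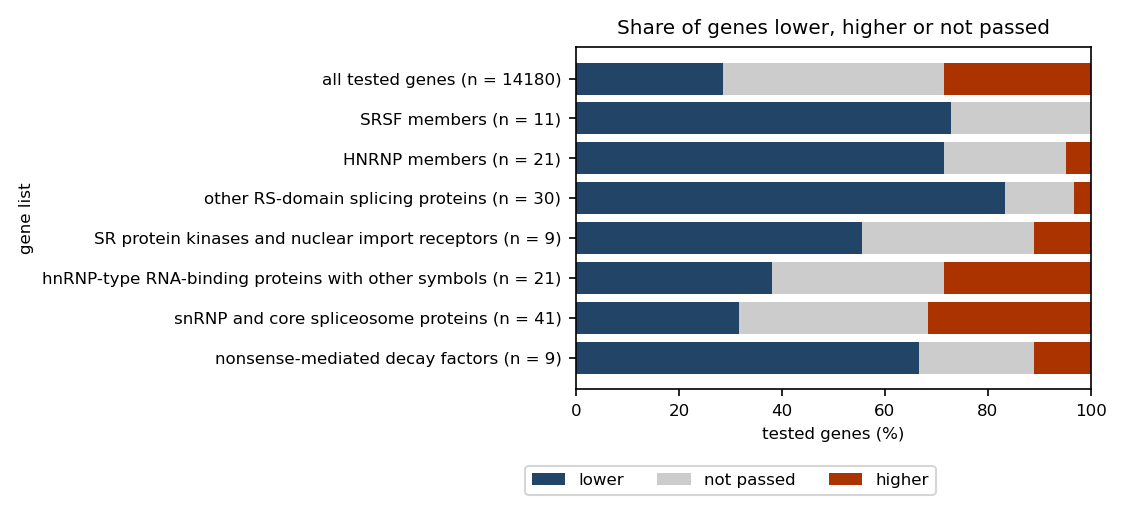
Share of tested genes that were lower (blue), not passed (grey) or higher (red) in the double knockout, for all tested genes, the SRSF and HNRNP genes and 5 related lists (x axis, %; n is the number tested). The SRSF (72.7% lower), HNRNP (71.4%) and other arginine and serine rich proteins (83.3%) stand above the 28.5% of all tested genes. The snRNP and core proteins (31.7%) are near that share, but below the 46.9% of protein-coding genes with a mean of at least 100 CPM (not drawn).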

How the data were processed

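Per the submitters' processing notes, the authors used cutadapt 2.10, STAR 2.7.6a, featureCounts and hg38. The deposited table holds raw, whole-number counts for each gene. The sources used here name neither the strand setting nor the treatment of multiply aligned reads. The kit marks strand, per the labels. GFP and FLuc RNA had been added to each library. The wild type columns are named HEK293G6, a name the labels do not explain, and were assigned to wild type because the other columns carry the double knockout's name.

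Gene identifiers were matched to GENCODE release 29. Tests used edgeR 4.0.16 under R 4.3.3. Genes were kept by filterByExpr (minimum count 10, minimum total 15), libraries were scaled by TMM, and glmQLFit (robust) and glmQLFTest compared double knockout with wild type, two-sided, with Benjamini-Hochberg adjustment over all tested genes and a threshold of 0.05. CPM used TMM-scaled library sizes. Standard errors were taken from the test statistic. The fit was tested on simulated counts. Alternatives were RLE scaling, spike-in scaling, 2 other filters, DESeq2 1.42.0, limma voom (limma 3.58.1), a replicate block, and leaving out each library.

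By rule, genes given in full were the 5 largest falls and rises that passed among SRSF and among HNRNP genes, HNRNPA2B1 and HNRNPC. The same rule named the 3 genes with the smallest p-values that passed in each related list, mostly by fold change alone. Others named beyond this rule, such as ENOPH1, CBX3, MFSD11, GATC, AC015813.2 and the genes that rose in a list, were chosen after their values were seen. The gene set and the lists were chosen with earlier results of these data known.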

Additional observations from a re-analysis of the deposited data

How the results depend on the processing

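Over 13 refits, 395 of 414 fits of single SRSF and HNRNP genes kept direction and call, and 22 of the 23 falling genes stayed lower in every one. Spike-in scaling lowered the median of all genes by 0.11 on the log2 scale, and with it 2133 genes were higher over the whole table, 0 other arginine and serine rich proteins, 1 hnRNP-type protein with another symbol, 4 snRNP and core proteins and 0 decay factors. With DESeq2, 0 HNRNP genes and 0 decay factors were higher and 3 kinases or import receptors lower. With no low-count filter 0 decay factors were higher. Leaving out 1 library gave 0 to 2 higher HNRNP genes and 0 to 1 higher decay factors, the 1 being UPF1. HNRNPLL passed as higher with a mean of at least 5 CPM (adjusted p = 0.0316) and without wild type replicate 3 (0.0407). The cause was not tested.

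Among the SRSF and HNRNP genes, directions turned only in genes that had not passed. With spike-in scaling the log2 fold change was -0.0886 for HNRNPH3 and -0.0639 for SRSF12. With a mean of at least 5 CPM it was 0.0157 for HNRNPA1P48 and 0.0011 for SRSF8, and with limma voom 0.0143 for HNRNPA1P48. With 1 library left out it ranged from -0.0188 to 0.0355 for HNRNPH3, from -0.105 to 0.115 for HNRNPA1P48, from -0.37 to 0.0051 for HNRNPUL2-BSCL2, from -0.0322 to 0.117 for SRSF12 and from -0.0517 to 0.0053 for SRSF8. SRSF8 minus its neighbour median was 0.0629.

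The replicate numbers did not pair the libraries (correlations of deviations 0.0082, 0.0123 and 0.0107). With a replicate block 4054 genes were higher and 1 HNRNP gene was higher, and no call of an SRSF or HNRNP gene changed. Depth limits HNRNPA1L2, with 67 and 102 reads, and HNRNPUL2-BSCL2, with 85 and 71.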
